A study of Rattus norvegicus with 4 samples.

Results

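The genes described here are 30 genes of blood coagulation and fibrinolysis, chosen by symbol, out of 31457 gene rows in the deposited expression table. Each symbol matched exactly 1 row. They were measured by sequencing of poly(A)-selected RNA from the livers of 4 Lewis rats, with 1 library per group and therefore no replicate of any group. The miR-27b liver came from a rat that had undergone partial hepatectomy, in which some liver lobes are cut away and the rest regrows, and had received cells labelled ASCs-miR27b into a vein. The siRNC liver came from a hepatectomised rat given cells labelled ASCs-siRNC by the same route, and the saline liver from a hepatectomised rat given saline. The naive liver came from a rat labelled as a naive control. All 4 rats carried the RT1L allotype. The labels spell out neither ASCs, taken here to mean adipose-derived stem cells, nor siRNC, taken to be a control for the microRNA. The dose and species of the cells, the time between surgery and collection, and the age and sex of the rats are not stated in the labels used here.

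Coagulation is a chain of proteases that activate one another in plasma. It can start by contact activation, through factor XII and plasma kallikrein, or by tissue factor, a membrane protein exposed when vessels are damaged, and both routes meet at factor X, which turns prothrombin into thrombin. Thrombin cuts soluble fibrinogen into fibrin, the fibre of the clot, and plasmin later dissolves that fibre. Hepatocytes make most of these plasma proteins, while endothelial, stromal and myeloid cells supply tissue factor, factor VIII, thrombomodulin and the plasminogen activators. Fibrinogen is also an acute phase protein, made in larger amounts after injury under interleukin-6.

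The deposited values are log2 values set relative to a baseline of each gene's own, so they give differences between livers for 1 gene and not the level of 1 gene against another. Of the 30 genes, 27 passed a filter on low levels that 9411 genes of the table passed. For 22 of these, the stored precision of the values placed the baseline of normalized reads at a log2 level of 8 or more. Where that placement is right and each library reaches that level, counting error alone gives a log2 difference a 95% margin of at most 0.25 either way. A gene of a lower level can meet this precision by chance, and how often is not given here. For another 4 (F8, Plau, Thbd and Tfpi) the baseline was placed at a log2 level of 4 or more, which is 16 reads, and there the margin can reach 1.0. Plat, with whole reads recovered, was the remaining one. The genes F3, Serpina5 and Plaur were not kept, as they had few reads in every library. Counting error leaves out differences between animals, which 1 liver per group cannot show, so no test between groups was made and a difference here describes these 4 livers. As the rows are bulk tissue, fewer cells of a type and less RNA per cell cannot be told apart.

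Across the livers as a whole, size factors lay between 0.956 and 1.039. All 17 hepatocyte markers passed the filter, and their median log2 difference from the naive liver was -0.02 in the miR-27b, -0.10 in the siRNC and -0.03 in the saline liver. Markers of Kupffer cells and macrophages had medians of 1.55, 1.12 and 1.28 over 16 kept of 18 listed genes, in the same order of livers. Endothelial markers had medians of 0.63, 0.22 and 0.36 over 16 kept of 18, with Flt1 and Stab1 listed at 0 in every library. Stellate and stromal markers had medians of 1.16, 1.24 and 0.62 over 12 kept of 14. Red cell markers had medians of 2.03, 1.91 and 2.36 over 6 kept of 13, among them haemoglobin genes that may share reads. Of 14 platelet markers, 4 were kept, and 6, including the platelet receptor genes Gp1ba, Gp9 and Itga2b, were listed at 0 in every library. The median over all 9411 kept genes stayed between -0.03 and 0.00 in the 6 comparisons, so centring the libraries on it shifts no difference by more than 0.03.

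The miR-27b liver held the highest value of most coagulation genes, and the 3 fibrinogen chains stood furthest from the naive liver, in the miR-27b and saline livers, among these 22 genes of the upper level class. The miR-27b library was the highest of the 4 for 19 of the 27 kept genes, where it was the highest for 25% of all kept genes. It was highest for 16 of the 24 kept genes other than fibrinogen. The naive library was the lowest for 14 of the 27, against 30% of all kept genes. All but 4 of the 27 genes nevertheless stayed within 2-fold over the livers (23 of 27, against 80.9% of all kept genes). Within 1.5-fold there were 19 of 27, against 54.6%. The distance between the highest and the lowest liver had a median of 0.38 on the log2 scale over the 27 genes and of 0.54 over all kept genes. A stricter set held genes that had a mean of at least 50 recovered reads or lay in the upper level class. There the miR-27b library was the highest for 16 of 23 coagulation genes and for 26.3% of 3085 genes in all. In that set, 20 of 23 coagulation genes stayed within 2-fold over the livers, against 85.4% of all its genes. Within 1.5-fold there were 17 of 23, against 62.7%. The median distance over all genes of that set was 0.46.

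**Figure D1:**
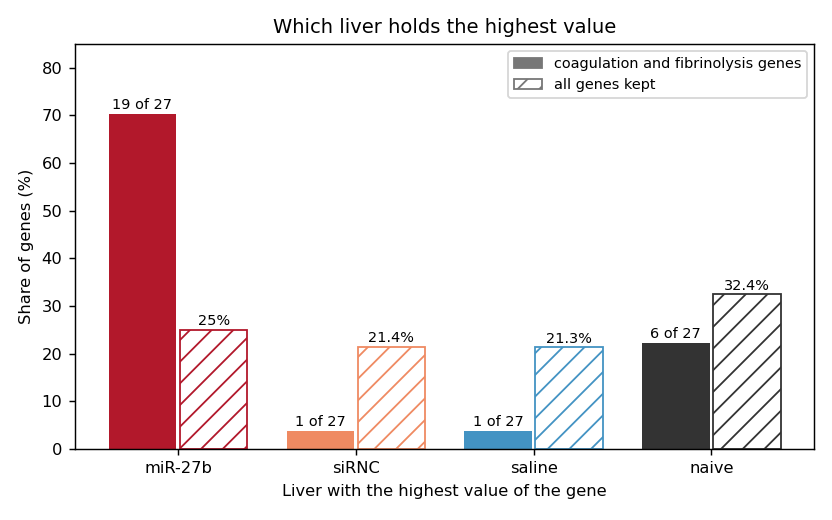
Share of genes, in percent, whose highest value lies in each liver, for the 27 kept coagulation and fibrinolysis genes (filled bars, with counts) and for all 9411 kept genes (hatched bars). The miR-27b liver holds the highest value for 19 of 27 genes, against 25% of all genes; each liver is 1 library.

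**Figure D2:**
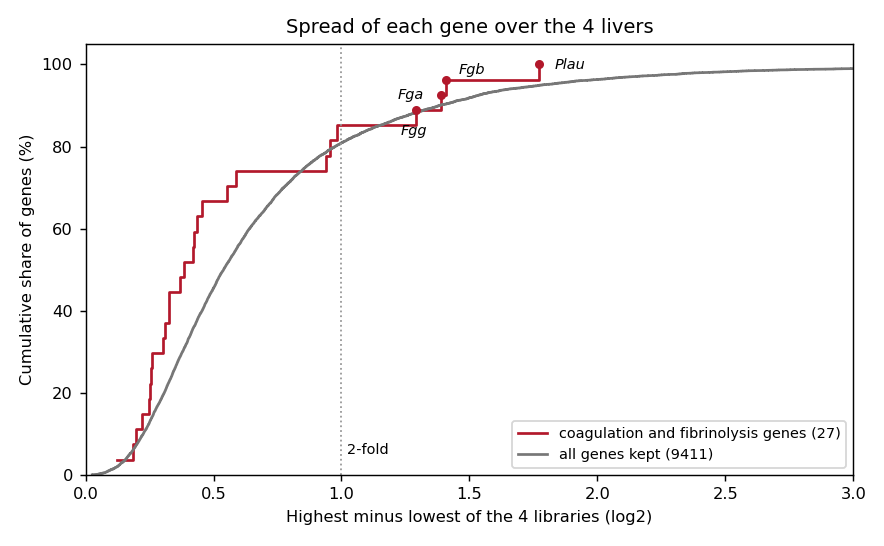
Cumulative share of genes, in percent, by the log2 distance between the highest and lowest of the 4 libraries, for the 27 kept coagulation and fibrinolysis genes (red) and all 9411 kept genes (grey). The dotted line marks 2-fold; Fgg, Fga, Fgb and Plau lie beyond it, and the red line lies above the grey one at most distances below it.

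Fibrinogen is built from 3 chains, encoded by Fga, Fgb and Fgg, which lie next to one another on rat chromosome 2 with no other protein-coding gene between them in the RefSeq annotation. Fga had log2 values of 0.66 in the miR-27b, -0.22 in the siRNC, 0.00 in the saline and -0.73 in the naive liver. Fgb had 0.50, -0.22, 0.00 and -0.91 in the same livers, and Fgg had 0.53, -0.14, 0.00 and -0.76. All 3 chains thus ran in one order, with the miR-27b liver highest, the saline liver next, the siRNC liver slightly under it and the naive liver lowest. Against the naive liver, the miR-27b liver was 2.62-fold higher for Fga, 2.65-fold for Fgb and 2.45-fold for Fgg. The siRNC liver was 1.42-fold, 1.62-fold and 1.53-fold higher for Fga, Fgb and Fgg, and the saline liver 1.65-fold, 1.88-fold and 1.69-fold higher. These differences exceed the counting margin of 0.25 of that class, whereas the distances between the siRNC and saline livers, of -0.22 to -0.14, do not.

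The stretches before the 3 genes are shown because the chains moved together and because fibrinogen promoters are known for interleukin-6 response motifs with the core CTGGGA. They are taken from RefSeq on build GRCr8 and run from 250 bases before to 50 bases after the first listed transcript start. Capitals mark CTGGGA or its reverse complement TCCCAG. Fga lies at chr2:170671919-170672218 on the plus strand, Fgb at chr2:170700826-170701125 on the minus strand and Fgg at chr2:170652833-170653132 on the plus strand.
Fga: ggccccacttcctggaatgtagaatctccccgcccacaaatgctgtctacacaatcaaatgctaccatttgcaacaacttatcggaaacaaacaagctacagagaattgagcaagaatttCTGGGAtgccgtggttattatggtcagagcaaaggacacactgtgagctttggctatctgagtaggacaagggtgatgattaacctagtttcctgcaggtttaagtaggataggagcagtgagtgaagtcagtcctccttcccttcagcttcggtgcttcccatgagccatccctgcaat
Fgb: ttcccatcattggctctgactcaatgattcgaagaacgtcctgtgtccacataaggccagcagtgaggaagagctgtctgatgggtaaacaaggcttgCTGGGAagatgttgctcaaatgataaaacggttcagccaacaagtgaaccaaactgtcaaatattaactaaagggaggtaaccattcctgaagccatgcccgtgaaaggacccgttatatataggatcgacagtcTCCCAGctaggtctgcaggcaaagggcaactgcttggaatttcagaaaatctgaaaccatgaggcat
Fgg: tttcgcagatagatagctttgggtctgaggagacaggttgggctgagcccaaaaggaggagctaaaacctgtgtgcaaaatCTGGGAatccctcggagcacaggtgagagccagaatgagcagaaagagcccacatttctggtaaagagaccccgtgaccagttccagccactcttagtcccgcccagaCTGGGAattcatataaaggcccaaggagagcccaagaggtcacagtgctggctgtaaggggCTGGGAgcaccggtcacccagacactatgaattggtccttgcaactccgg
Positions are counted back from the transcript start. The core on the strand of the gene begins at -130 before Fga and at -152 before Fgb. Before Fgg it begins at -169 and at -61, and once more at the first transcribed base. A copy on the other strand begins at -17 before Fgb. Searching both strands, the core was present in 13 of the 22 coagulation genes with a listed promoter and in 30.4% of 27457 rat promoters of the same length, so its letters alone are common. The palindromic STAT-like motif TTCNNNGAA was found in 4 of the 22 and in 8.68% of all promoters, and it begins at -242 before Fga and at -223 before Fgb. The motif GTTAAT, known from sites of the liver factor HNF1, was found in 7 of the 22 and in 7.37% of all promoters, on the other strand at -52 before Fga and -90 before Fgb, and also before F2, F13b, Proc, Plg and Tfpi. Among these matches, 1 STAT-like motif overlapped a core, before F9. Other genes of the 30 with a core were F2, F9, F10, F11, Serpinc1, Serpina5, Proc, Pros1, Plg and Plaur. All of them but Serpina5 and Plaur stayed within 1.5-fold over the livers, as did 54.6% of all kept genes and 62.7% of the stricter set.

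**Figure D3:**
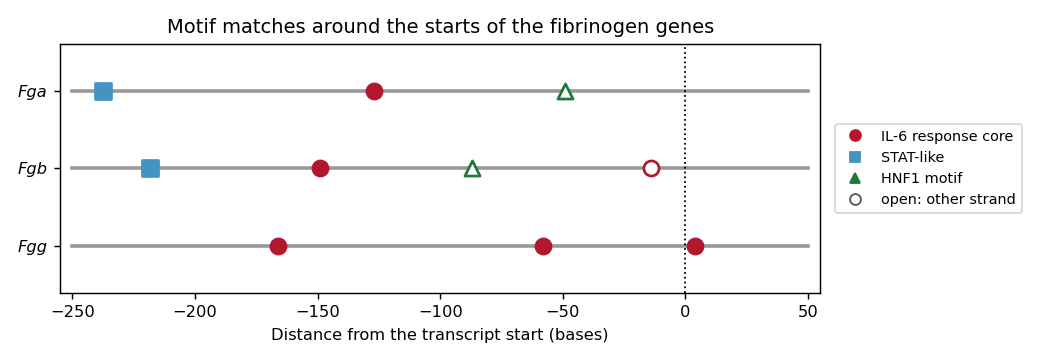
Position of motif matches, in bases from the transcript start (dotted line), before Fga, Fgb and Fgg; circles are the interleukin-6 response core, squares the STAT-like motif and triangles the HNF1 motif, filled on the strand of the gene (and for the palindromic STAT-like motif) and open on the other strand. Each gene carries at least 1 core on its own strand, at -130, -152, and -169 and -61.

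Other acute phase genes of the liver, taken from a list that leaves out clotting factors, were mostly higher in the same livers. Of 16 kept genes of 17 listed, 10 were at least 2-fold higher in the miR-27b than in the naive liver (median 1.46; 8.01% of all kept genes), 4 in the siRNC liver (median 0.77; 5.92%) and 4 in the saline liver (median 0.77; 5.64%). Lcn2, which encodes an iron-siderophore binding protein, stood at 5.44, 1.24 and 2.25 above the naive liver in the miR-27b, siRNC and saline livers, and Orm1, which encodes the plasma glycoprotein orosomucoid, at 3.24, 2.08 and 1.95. Hamp, the gene of the iron hormone hepcidin, lay the other way, at -5.41, -1.25 and -0.49. Genes of interleukin-6 and STAT3 signalling had medians of 1.23, 0.60 and 0.67 over 13 kept genes, with 8, 1 and 4 of them at least 2-fold higher. The fibrinogen differences from the naive liver, 1.29 to 1.41 in the miR-27b, 0.50 to 0.70 in the siRNC and 0.73 to 0.91 in the saline liver, stand beside acute phase medians of 1.46, 0.77 and 0.77. These 3 sets of differences share the naive library.

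**Figure D4:**
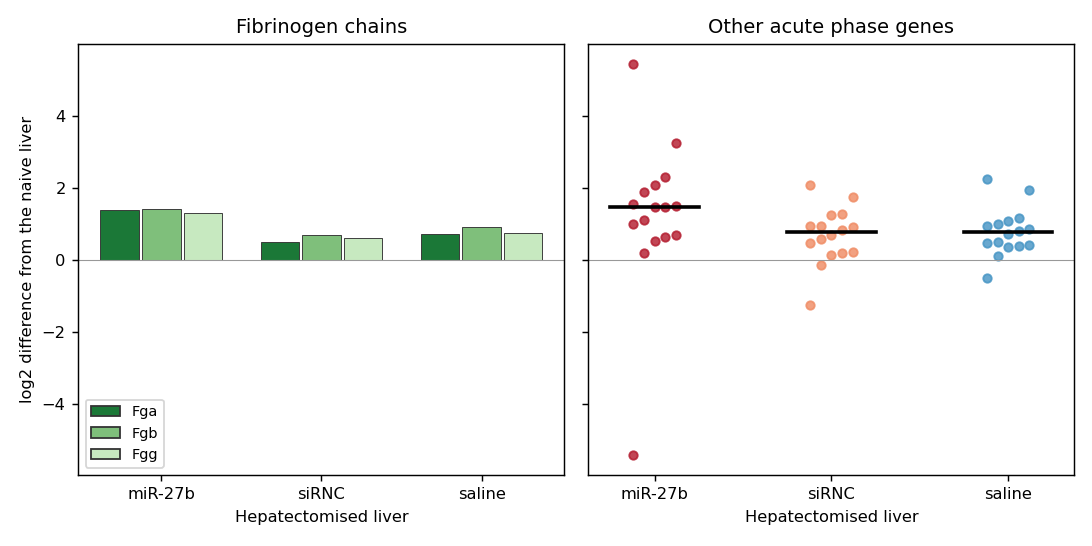
log2 difference from the naive liver in the miR-27b, siRNC and saline livers, for Fga, Fgb and Fgg (bars, left) and for 16 other acute phase genes (points, with black lines at the medians of 1.46, 0.77 and 0.77, right). The fibrinogen bars stand at 1.29 to 1.41 in the miR-27b liver and under 1 in the other livers; each value comes from 1 library.

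Of the remaining genes of the common pathway, none reached 2-fold in any pair of livers. F2, which encodes prothrombin, the precursor of thrombin, had log2 values of 0.20 in the miR-27b, 0.00 in the siRNC, 0.00 in the saline and -0.13 in the naive liver. F10, the protease that activates prothrombin, had 0.29, 0.00, 0.05 and -0.10. F5, its cofactor, had 0.28, -0.31, -0.03 and 0.09, so for F5 the siRNC liver, and not the naive one, was lowest. F5 was 0.59 higher in the miR-27b than in the siRNC liver, the widest distance of the pathway apart from fibrinogen. F13b, which encodes the carrier subunit of the fibrin cross-linking factor XIII, had 0.16, 0.00, -0.05 and 0.20, with the naive liver highest.

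Genes of contact activation and the intrinsic route showed little movement and no shared order. F12, the protease that starts contact activation, had log2 values of -0.03 in the miR-27b, -0.02 in the siRNC, 0.14 in the saline and 0.28 in the naive liver, which places the miR-27b liver lowest. F12 was the 1 kept gene of the 27 for which that liver was lowest, a position it held for 26.2% of all kept genes. Klkb1, which encodes plasma prekallikrein, had 0.00, 0.03, -0.08 and -0.10, and with a range of 0.12 it varied least of the 27. F11, which thrombin and factor XII activate and which lies directly beside Klkb1 on chromosome 16, had 0.15, -0.33, 0.22 and -0.13. F11 was highest in the saline liver. The range of Klkb1 lies within the counting margin of 0.25, so its order of livers was not resolved and cannot be compared with that of F11. F9, the protease missing in haemophilia B, had 0.14, 0.06, -0.11 and 0.00. F8, its cofactor and largely an endothelial product, had 0.00, -0.19, 0.07 and 0.14, and its range of 0.32 is within the counting error possible at 16 reads.

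Tissue factor and its partner differed in how well they were measured. F7, the protease that tissue factor activates, had log2 values of 0.29 in the miR-27b, 0.09 in the siRNC, -0.03 in the saline and -0.13 in the naive liver, so the naive liver was lowest and the miR-27b liver was 0.42 above it. F3, which encodes tissue factor itself, had 8 reads in the miR-27b, 10 in the siRNC, 1.97 in the saline and 7 in the naive library. Fractions are taken here as reads lying only partly within a gene, which the sources used here do not state. The saline library was the low one, at a log2 difference of -1.92 from the naive library with an exact 95% counting interval of -5.20 to 0.50. Against the saline library the siRNC library was 2.39 higher (0.14 to 5.60) and the miR-27b library 2.14 higher (-0.21 to 5.39). Of these 3 intervals, which rest on reads rounded to whole numbers, the one between the siRNC and saline libraries leaves out 0. F7, F10 and Proz lie side by side on chromosome 16, and the miR-27b liver held the highest value of each. That liver was highest for 19 of the 27 kept genes in all. Its lead over the next liver was 0.20 for F7, 0.24 for F10 and 0.15 for Proz. These leads lie within the counting margin of the upper level class, so which liver was highest was not resolved for these genes.

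Of the 3 kept serpins that inhibit coagulation proteases, Serpina10 had the widest range. This gene encodes the protein Z-dependent inhibitor of factor Xa and had log2 values of 0.41 in the miR-27b, 0.04 in the siRNC, -0.16 in the saline and -0.53 in the naive liver. It was 1.92-fold higher in the miR-27b than in the naive liver, just inside 2-fold, 1.48-fold higher in the siRNC and 1.29-fold higher in the saline liver. Its partner Proz, which encodes protein Z, had 0.23, -0.07, -0.05 and 0.08, a narrower spread with the siRNC and not the naive liver lowest. Serpinc1, which encodes antithrombin, the main inhibitor of thrombin and factor Xa, had 0.26, -0.05, 0.00 and -0.19, with the miR-27b liver highest. The siRNC, saline and naive livers lay within the counting margin of the upper level class of one another, so their order was not resolved. Serpind1, which encodes heparin cofactor II, had 0.00, -0.07, -0.17 and 0.05 and varied by 0.22 in all. Serpina5, the protein C inhibitor, is known in the mouse to be little expressed in liver and had 2 reads in the miR-27b, 2 in the siRNC, 5.62 in the saline and 3.06 in the naive library. Its counting intervals all hold 0, so no difference was detectable at this depth.

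The protein C system switches coagulation off once thrombin binds thrombomodulin on endothelium. Thbd, which encodes thrombomodulin, had log2 values of 0.56 in the miR-27b, -0.01 in the siRNC, 0.00 in the saline and -0.43 in the naive liver. It was thus 1.98-fold higher in the miR-27b than in the naive liver and 1.34-fold higher in both the siRNC and the saline liver; endothelial markers had medians of 0.63, 0.22 and 0.36 against the naive liver, and their part in the result was not tested. Proc, which encodes the zymogen that thrombomodulin presents to thrombin, ran the other way, with 0.00, -0.12, 0.04 and 0.30 and the naive liver highest. Pros1, the cofactor protein S, had 0.09, -0.09, 0.01 and -0.10, a range of 0.19. Tfpi, which encodes the inhibitor of the tissue factor complex, had 0.21, 0.00, -0.06 and -0.16, again with the miR-27b liver highest and the naive liver lowest. Thbd and Tfpi lie in the class of 16 or more reads. All their differences are within the counting margin of 1.0 that 16 reads in each library give. The 7 genes whose products need vitamin K (F2, F7, F9, F10, Proc, Pros1 and Proz) were all higher in the miR-27b than in the siRNC liver, by 0.07 to 0.30, where 50.5% of all kept genes were higher. None of the 7 was 1.5-fold apart in any of the 6 comparisons. This holds for 54.6% of all kept genes and for 62.7% of the stricter set.

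In the plasminogen system, the activators differed while plasminogen itself did not move far. Plau, which encodes urokinase, had log2 values of 0.53 in the miR-27b, 0.17 in the siRNC, 0.00 in the saline and -1.25 in the naive liver. It was 3.42-fold, 2.66-fold and 2.37-fold higher than naive in the miR-27b, siRNC and saline livers, the widest distances of the 27 genes. On the log2 scale these differences were 1.77, 1.41 and 1.25. Plau lies in the class of 16 or more reads, where 16 reads in each library give a counting margin of 1.0. The naive library lies 1.25 under the gene's baseline and may hold fewer reads than that. The margin would then be wider, and whether each difference exceeds it is not known. Plaur, its receptor, had 4 reads in the miR-27b, 2 in the siRNC, 2.40 in the saline and 1 in the naive library, and all of its counting intervals hold 0. Macrophage markers, which include cells known to make both, had medians of 1.55, 1.12 and 1.28 against the naive liver, and their part in these differences was not tested.

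Plat, which encodes tissue plasminogen activator, had 72 reads in the miR-27b, 51 in the siRNC, 48 in the saline and 38 in the naive library. The miR-27b library stood above each of the others, by 0.95 over the naive library (95% counting interval 0.37 to 1.56), 0.71 over the saline library (0.16 to 1.26) and 0.57 over the siRNC library (0.03 to 1.12). Between the siRNC or saline library and the naive one the intervals held 0. Plg, the plasminogen that both activators cut, had log2 values of 0.00, 0.00, -0.05 and 0.15, with the naive liver highest and a range of 0.20. Of the genes that slow fibrinolysis, Cpb2, a carboxypeptidase that trims fibrin, had 0.34, 0.07, -0.09 and -0.09 and was highest in the miR-27b liver. Serpinf2, which encodes the plasmin inhibitor alpha-2-antiplasmin, had 0.20, -0.05, -0.04 and 0.01, and Hrg, a plasminogen-binding plasma glycoprotein, had 0.07, -0.19, -0.04 and 0.00. Both were highest in the miR-27b and lowest in the siRNC liver, though the range of Serpinf2 lies within the counting margin of 0.25.

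**Figure D5:**
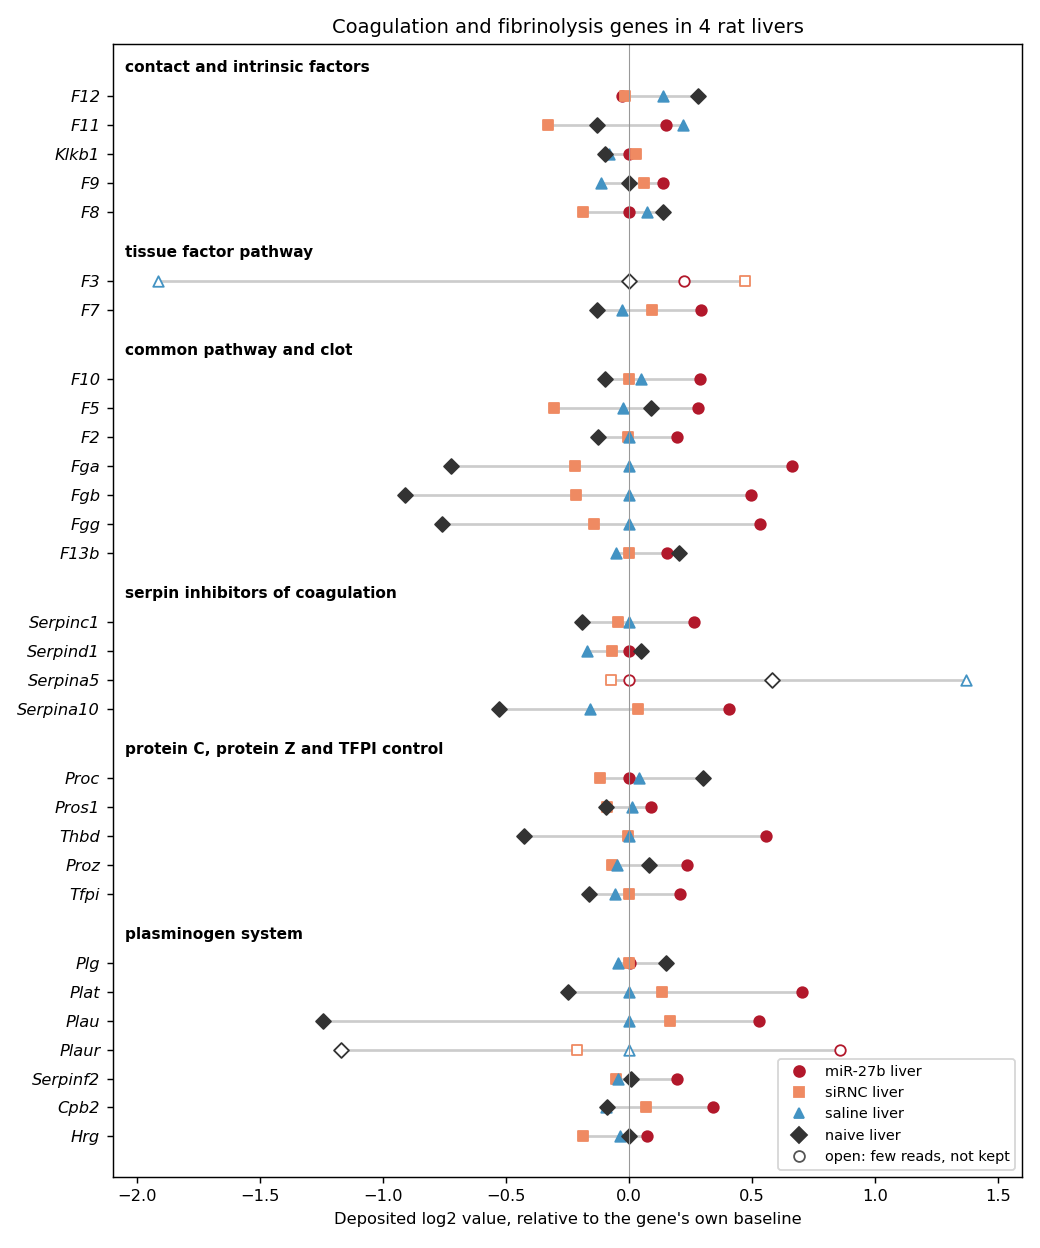
Deposited log2 value of each of the 30 genes, relative to the gene's own baseline, in the miR-27b (red circles), siRNC (orange squares), saline (blue triangles) and naive (black diamonds) liver, grouped by role; a grey line joins the lowest and the highest liver, and open symbols mark the 3 genes with few reads. The fibrinogen chains and Plau span the widest distances among the filled symbols, with the naive liver lowest.

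Set out by comparison, 4 of the 27 kept genes were at least 2-fold apart between the miR-27b and naive livers (11.7% of all kept genes), namely Fga, Fgb, Fgg and Plau, all higher. Centring the libraries on the median of all kept genes makes it 5, as Thbd, at a log2 difference of 0.98 uncentred, then passes 2-fold. Plau was the 1 such gene between the siRNC and naive livers (9.18%) and between the saline and naive livers (9.12%). The median log2 difference from the naive liver was 0.28 in the miR-27b, 0.10 in the siRNC and 0.10 in the saline liver. Without the fibrinogen chains, these medians were 0.19, 0.03 and 0.00 over 24 genes. None of the 27 was 2-fold apart between the siRNC and saline livers (3.51% of all kept genes), where the median was -0.01. None was 2-fold apart between the miR-27b and saline livers (3.9%) or between the miR-27b and siRNC livers (4.89%). Small differences in 1 direction prevailed there, with 23 of 27 genes higher in the miR-27b than in the saline liver (50% of all kept genes, median 0.25) and 25 of 27 higher in the miR-27b than in the siRNC liver (50.5%, median 0.26). Without the chains these 2 medians were 0.24 and 0.23. At 1.5-fold, Fga and Plat were higher in the miR-27b than in the saline liver, a count near the share of all kept genes (7.77%). The genes Fga, Fgb, Fgg and F5 were higher in the miR-27b than in the siRNC liver (8.26%). Both comparisons share the miR-27b library. Among the 22 genes of the upper level class, the number whose livers lay within the counting margin of 0.25 was 10 between the miR-27b and naive livers (48% of all 2450 kept genes of that class), 15 between the siRNC and naive livers (53.9%) and 15 between the saline and naive livers (54.7%). It was 12 between the miR-27b and saline livers (65.1%), 11 between the miR-27b and siRNC livers (64%) and 20 between the siRNC and saline livers (64.4%). All 4 livers lay within the margin for 5 of the 22, namely Klkb1, Serpind1, Serpinf2, Pros1 and Plg, so the order of their livers was not resolved.

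Among genes listed as mainly hepatocyte products, 21 of 22 were kept, with Serpina5 left out for few reads. Their median difference from the naive liver was 0.19 in the miR-27b, 0.06 in the siRNC and -0.01 in the saline liver. The genes known from endothelial, stromal or myeloid cells, of which 6 of 8 were kept, had medians of 0.66, 0.27 and 0.18. F3 and Plaur are the 2 of that group left out for few reads. The 6 kept are F8, Plat, Plau, Thbd, Tfpi and Pros1.

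Of 31 other genes that act in or on coagulation, 23 were kept, and more of them were past 2-fold than among the 30. Against the naive liver, 13 of 23 were at least 2-fold higher in the miR-27b liver (8.01% of all kept genes), 9 in the siRNC liver (5.92%) and 7 in the saline liver (5.64%). Highest were the kininogen genes Kng1, at 4.23, 3.0 and 2.65 in the miR-27b, siRNC and saline livers, and Kng1l1, at 4.18, 2.78 and 2.36; they are close copies that may share reads. The list holds A2m, an acute phase gene in the rat, and the endothelial gene Vwf, which also stand in the acute phase and endothelial lists. Apoh, which encodes beta-2-glycoprotein I, was the lowest of the 23 in the miR-27b liver, at -0.18 against naive.

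Genes of the vitamin K cycle and of factor secretion were all kept (10 of 10) and had medians of -0.01 in the miR-27b, -0.03 in the siRNC and -0.04 in the saline liver against the naive liver. Nqo1, a quinone reductase, was at least 2-fold higher in the miR-27b liver (1.27), and the tyrosine sulphating enzyme gene Tpst2 was lower in the siRNC liver (-1.01; 3.26% of all kept genes were at least 2-fold lower there). Transcription factors known to act on clotting genes had medians of -0.42, -0.28 and -0.40 over 12 genes. Among them Foxa2 and Nfe2l2 stood at -1.15 and -1.12 in the miR-27b liver, 2 of 12 genes at least 2-fold lower there (3.64% of all kept genes). Nfe2l2 was also at -1.20 in the saline liver. Onecut1, which encodes HNF6, had log2 values of -2.83 in the miR-27b, 0.94 in the siRNC, 0.00 in the saline and -2.68 in the naive liver, so it was high in the siRNC and saline livers and low in the miR-27b and naive livers.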

How the data were processed

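Poly(A)-selected liver RNA was prepared with TruSeq kits, per the labels' protocols, and sequenced on an Illumina MiSeq, per the series' design text. The authors deposited 1 table of log2 values, named normalized per the file headers. Per the submitters' processing notes, DESeq was used (version not stated) and the rat build was rn5; neither aligner nor counter is given in the sources used here. Samples were grouped by their source label and table columns matched by sample title.

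The deposited values differ from log2 normalized reads, floored at 1, by 1 baseline per gene. The worth of 1 read per library was taken from the most common value of genes above 0 in 1 library alone. That value was assumed to be 1 read in the miR-27b and naive libraries. In the siRNC and saline libraries, where 28 and 27 genes held it, it was assumed to be 2 reads. Reads were searched in steps of 1 part in 101 up to 300 reads and as whole numbers up to 20000, and used at a posterior above 0.9 and a mean under the upper level class below. This recovered reads for 3435 of 12874 genes with a value other than 0; among kept genes 78.8% of recovered values were whole, within 1e-06 of a read. On simulated data, 287 of 305 recovered genes with a mean between 4 reads and that class were right. The simulated reads used the same steps and read worths as the search, so this cannot show that those hold for the deposited values. Serpina5 and Plaur, with means of 3.16 and 2.38 normalized reads, lie under the simulated range. Other genes were placed in a class with a log2 level of at least 4 (16 normalized reads) or at least 8 from the binary digits of their values, among those above -2. An error rate of this placement is not given here. Kept were genes with a mean of at least 10 recovered reads or either class (9411 genes); the stricter set needed a mean of 50 or the upper class (3085 genes). Total reads per library cannot be derived, and total depth is unknown.

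Log2 differences are differences of deposited values with no pseudocount, and 2-fold is the threshold for a count. With 1 library per group there is no test. Counting intervals are exact conditional binomial (Clopper-Pearson) at 95%, cover counting error only, and use reads rounded to whole numbers. Promoters come from RefSeq on GRCr8 and matched 22 of 30 genes by gene ID, using the first listed start; the expression table was made on another build, so no expression coordinates are printed. Values in every library are given for all 30 genes. From the other lists, genes with values were named from the 2 highest and 2 lowest of a comparison. A result of 1 gene from these lists is not reported here. The genes, lists and alternatives were chosen with earlier results of these data known. Alternatives were no filter, the stricter filter, pseudocounts of 5 and 20, centring, a threshold of 1.5-fold and the mean. Python 3.11.15, pandas 2.3.3, numpy 2.4.6, scipy 1.17.1 and matplotlib 3.10.9 were used.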

Additional observations from a re-analysis of the deposited data

How the results depend on the processing

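No paired analysis was possible because each group holds 1 library. Centring each library on the median of all kept genes brought the coagulation genes at least 2-fold apart between the miR-27b and naive livers to 5, against 4, with Thbd added. It left the other 5 counts as they were and moved no median by more than 0.03. Without the filter on low levels, the number of the coagulation genes at least 2-fold apart was 5 between the miR-27b and naive livers, with Plaur added, 3 between the saline and naive livers, 2 between the siRNC and saline livers, 2 between the miR-27b and saline livers and 1 between the miR-27b and siRNC livers, with F3, Serpina5 and Plaur added. Between the miR-27b and naive livers it was 3 under the stricter filter or when 20 was added to each level, without Plau, and 4 when 5 was added. With the stricter filter, or a pseudocount of 5 or 20, it was 0 between the saline and naive and between the siRNC and naive livers, since Plau was left out or shrunk below 2-fold. Shares of all genes under these filters and pseudocounts are not given here. At 1.5-fold, all higher in the liver named first, the number was 4 between saline and naive (12.8% of all kept genes). It was 3 between siRNC and naive (12.7%) and 7 between miR-27b and naive (14.6%). It was 2 between miR-27b and saline (7.77%) and 4 between miR-27b and siRNC (8.26%). The counts for saline against naive, siRNC against naive and miR-27b against saline are near the share of all kept genes. The mean of the 27 genes between the miR-27b and naive livers was 0.42, above the median of 0.28, with the fibrinogen chains and Plau in its upper end. Of 180 differences of single genes, 19 moved by 0.13 or more when 5 was added to each level and 34 when 20 was added, and none past 2-fold changed sign. Where reads were not recovered, the lowest level of the class was assumed, so these alternatives shrink such differences as far as they can. With unknown total depth and 1 liver per group, differences between animals cannot be told apart from differences between treatments.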
